A study of Mus musculus with 4 samples.

Results

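The regulators of G protein signalling (RGS) are a protein family built around a conserved RGS box, and 9 of their genes, Rgs1, Rgs2, Rgs3, Rgs10, Rgs12, Rgs14, Rgs16, Rgs18 and Rgs19, are described here in mouse macrophages. They were followed among 22180 genes that have a feature of their own on the array, of which 12542, these 9 included, were bright enough to be tested. The list of genes was proposed with results of these data known, the feature of a gene was chosen by its mean over the 4 arrays, and the contrast of knockout with control is part of how the list was drawn up. Their values in that contrast are therefore given as a description, without p-values. Rgs2 had 2 features, of which the brighter was used, and the other 8 genes had 1 feature each.

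RNA came from bone marrow derived macrophages grown for 6 days with L-cell supernatant, a source of macrophage growth factor, and then given 100 ng/ml lipopolysaccharide (LPS), the Toll-like receptor 4 ligand of Gram-negative bacteria, for 2 hours. The knockout genotype is PP2ACαfl/fl;lyM-Cre, in which a myeloid Cre removes the floxed exon 1 of Ppp2ca, the gene of PP2ACα, a catalytic subunit of the serine/threonine phosphatase PP2A. The control genotype is PP2ACαfl/fl, with the same floxed alleles and no Cre, so the presence of Cre and the loss of the phosphatase subunit cannot be told apart. There were 2 arrays of each genotype, called biological replicates in the labels. The labels do not say that the arrays came from separate mice, so all errors rest on spread between arrays, which may be technical. Each standard error (SE) is a moderated one from limma, a linear model that draws a gene's variance towards that of all tested genes. It is therefore not set by the gene's own arrays alone. Every culture had received LPS, so no value here measures the response to LPS itself. Values are log2 expression units made by the authors with robust multi-array averaging (RMA), and the number of arrays limits their precision.

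A ligand-bound receptor loads the alpha subunit of a heterotrimeric G protein with GTP, and the alpha and beta-gamma subunits then act on adenylyl cyclase, phospholipase C beta and ion channels until the GTP is hydrolysed. The RGS box speeds up that hydrolysis on alpha subunits of the Gi and Gq classes, so that RGS proteins shorten the signal from chemokine, chemoattractant and lipid mediator receptors. In leukocytes the family is known for setting how long and how strongly cells respond to chemoattractants, and several of its genes are known to be induced or repressed within hours of Toll-like receptor stimulation. By sequence the family is divided into the R4 subfamily of small proteins with little beside the box (Rgs1, Rgs2, Rgs3, Rgs16 and Rgs18 here), the R12 subfamily (Rgs10, Rgs12 and Rgs14), the RZ subfamily (Rgs19) and the R7 subfamily of mostly neuronal proteins.

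The targeted gene and the macrophage identity of the cells were checked first. Ppp2ca was at 4.36 and 3.39 log2 units on the knockout arrays, against 8.25 and 7.59 on the control arrays, a difference of -4.04 (SE 0.36, limma adjusted p = 0.00759), while its paralog Ppp2cb was level (-0.04, limma adjusted p = 0.828). Where the probes of these features lie relative to the removed exon was not analysed here. Lyz2, the lysozyme gene that commonly carries the myeloid Cre, differed by -5.19. This lower Lyz2 level was a further difference between the genotypes, and its part in the other values was not tested. All 6 macrophage markers (Adgre1, Csf1r, Cd14, Cd68, Itgam and Mertk) had means of 8.27 or more over the 4 arrays, against a filter level of 3.53, the median over all features. Markers of B cells, T and NK cells, neutrophils, mast cells and stromal cells mostly lay near or below that level, with Ngp, a neutrophil granule gene, at 5.18 and Cd79b, a B cell receptor gene, at 5.37 as the highest of these lists. Of 5 dendritic cell markers with a feature, 3 were below that level, and Cd209a, a C-type lectin gene, was the highest at 6.78. In the comparison of the genotypes, 852 of 12542 tested genes were called, which means that they passed an adjusted p of 0.05 in limma, a share of 6.79%.

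Rgs16 was the one gene of the 9 whose level differed widely between the genotypes, being 3.48-fold lower in knockout macrophages. The other 8 differed by between -0.20 and 0.28 log2 units, with SEs of 0.09 to 0.16. In the fit across all tested genes 1 of the 9 was called, Rgs16, beside the 6.79% of all tested genes. Called lower was 1 of 9, against 3.49% of all tested genes; called higher were 0 of 9 with limma, against 3.30%, with 1 higher at an unadjusted p under 0.05. The arrays of the genotypes did not overlap for 4 of the 9, against 55.3% of all tested genes. As the members were listed with this contrast known, nothing is read from these shares. The median difference of the 9 genes was 0.02 log2 units, beside 0.01 over all tested genes.

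**Figure D1:**
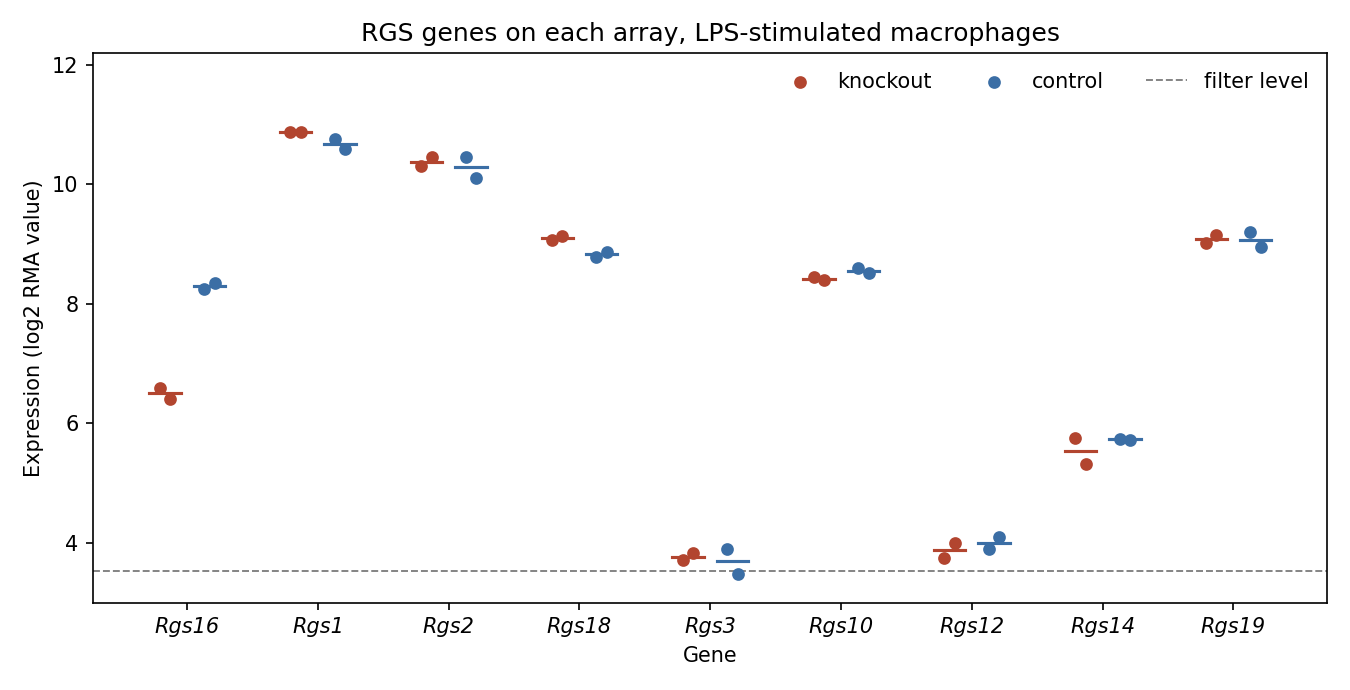
Expression of the 9 RGS genes on each array in log2 RMA values, with knockout arrays to the left of control arrays, a point for each array, a bar for the mean of 2 arrays and a dashed line at the filter level of 3.53. Rgs16 is the one gene whose genotypes stand far apart, at 6.59 and 6.41 on the knockout arrays and 8.25 and 8.36 on the control arrays; levels of different genes come from different probes and are not to be ranked.

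Rgs16 encodes a small R4 protein that acts on Gi and Gq alpha subunits and is known in lymphocytes as a brake on migration towards chemokines. Its feature read 6.59 and 6.41 log2 units on the knockout arrays, against 8.25 and 8.36 on the control arrays. Both knockout arrays lay far below both control arrays, and the smallest difference between any knockout and any control array was -1.65. The means were 6.50 ± 0.13 in knockout and 8.30 ± 0.08 in control macrophages (SD, n = 2 each), a difference of -1.80 (SE 0.11). On the linear scale the knockout level was 28.7% of the control level. The gap between the 2 knockout arrays was 0.18 and that between the 2 control arrays 0.11. Sorted by the size of the fall, Rgs16 stood in place 13 among the 12542 tested genes. As the gene was listed with this contrast known, the place is only a description. In whole cultures, fewer cells that express a gene and less of its RNA per cell cannot be told apart, and RMA values on arrays tend to understate differences.

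The promoter of Rgs16 is shown because that gene carries the difference, beside that of Rgs2, a bright R4 gene of the same chromosome whose genotypes overlapped. Each line gives the 250 bases before the transcription start from RefSeq (assembly GRCm38.p6), read 5′ to 3′ on the gene's strand. The window is chr1:153740103-153740352 on the plus strand for Rgs16 and chr1:144004150-144004399 on the minus strand for Rgs2. Capitals mark 3 motifs searched for on both strands: the CCAAT box (CCAAT), the GC box (GGGCGG) and TGACG, the core of the cAMP response element.

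Rgs16: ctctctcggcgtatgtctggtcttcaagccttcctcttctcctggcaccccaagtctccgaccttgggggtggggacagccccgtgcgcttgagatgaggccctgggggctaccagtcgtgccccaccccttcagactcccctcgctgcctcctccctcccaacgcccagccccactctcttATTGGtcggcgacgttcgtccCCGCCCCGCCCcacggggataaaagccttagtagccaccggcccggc

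Rgs2: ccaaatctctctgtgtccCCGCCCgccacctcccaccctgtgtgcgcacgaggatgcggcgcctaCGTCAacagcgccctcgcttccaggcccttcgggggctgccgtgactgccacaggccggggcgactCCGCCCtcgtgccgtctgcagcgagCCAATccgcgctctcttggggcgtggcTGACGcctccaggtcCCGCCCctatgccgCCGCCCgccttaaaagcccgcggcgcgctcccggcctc

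The Rgs16 window held 1 CCAAT box and 2 GC boxes, which overlap each other, and no match to TGACG. The Rgs2 window held 1 CCAAT box, 4 GC boxes and 2 matches to TGACG. Neither held the fourth motif searched, the TATA box (TATAAA). Among 32851 mouse promoter windows of the same length, 33.8% held a CCAAT box, 32.7% a GC box, 17.8% the TGACG core and 12.4% a TATA box. Both windows were rich in G and C, with 66.4% for Rgs16 and 72.4% for Rgs2. A match is a run of letters, and binding at it was not measured here. Promoter windows were found for 6 of the 9 genes, and none was found for Rgs1, Rgs14 and Rgs18. Those of Rgs3, Rgs10, Rgs12 and Rgs19 are not printed. No window of Rgs3, Rgs10 or Rgs19 held a match to TGACG, and a window of Rgs12 held 1. The lack of that core was thus not particular to Rgs16.

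The other R4 genes differed far less between the genotypes than Rgs16. Rgs1, known from B and T lymphocytes as a desensitiser of chemokine receptors, read 10.88 and 10.88 log2 units on the knockout arrays, against 10.77 and 10.59 on the control arrays. Both knockout arrays were above both control arrays, but by as little as 0.12 for the closest pair, and the difference was 0.20 (SE 0.10). Rgs18, which is known from megakaryocytes, platelets and monocytes, read 9.08 and 9.14 on the knockout arrays, against 8.79 and 8.87 on the control arrays. Again the arrays did not overlap, with knockout the higher, and the difference of 0.28 (SE 0.09), or 1.21-fold, was the largest positive one among the 9. Neither gene was called in the fit across all genes, though Rgs18 was called when the prior variance was allowed to follow intensity. As Rgs18 was listed with this contrast known, that call is only a description.

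Marker genes of cells in which Rgs18 is known were set beside it. Of 4 megakaryocyte and platelet markers with a feature, 2 were tested and 1 was called, Ppbp, at -0.45. Itga2b and Gp9 were below the filter level, and the summed level of the 4 was 8.96 to 8.98 log2 units on the knockout arrays and 8.98 to 9.37 on the control arrays. Most of that sum was Pf4, which had a mean of 8.92 over the 4 arrays and was not called. Of 4 monocyte markers with a feature, 3 were called higher (Ms4a4c, Ccr2 and Ly6c2) and 1 lower (F13a1), with a summed level of 10.23 to 10.29 on the knockout arrays and 10.19 to 10.32 on the control arrays. The brightest monocyte markers, F13a1 at -0.79 and Ccr2 at 0.83, differed in opposite directions and offset each other in the sum. Neither sum is a measure of cell content. The part of either cell type in the Rgs18 or Rgs16 values was not tested.

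Rgs2, an R4 protein with a preference for Gq that also binds adenylyl cyclase, read 10.30 and 10.46 log2 units on the knockout arrays, against 10.46 and 10.11 on the control arrays. The genotypes overlapped, since the higher array of each was at the same level, and the difference was 0.10 (SE 0.14). Its second feature was dim, with means of 2.94 in knockout and 2.87 in control macrophages, and overlapped as well. Rgs3, a gene with long and short protein forms that carry an R4 type box, read 3.71 and 3.83 on the knockout arrays, against 3.90 and 3.48 on the control arrays. These values straddle the filter level of 3.53, the control arrays enclosed the knockout arrays, and a difference of 0.08 (SE 0.16) at such a level says little about the transcript.

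The R12 genes had slightly lower means in knockout macrophages over all 4 arrays, a direction that Rgs14 and Rgs12 each lost with 1 array left out. Rgs10, a short protein known from microglia and macrophages as a restraint on inflammatory gene expression, read 8.45 and 8.40 log2 units on the knockout arrays, against 8.60 and 8.52 on the control arrays. Its arrays did not overlap, knockout being the lower, yet the difference was only -0.13 (SE 0.09). Rgs14, which joins an RGS box to Ras/Rap binding domains and a GoLoco motif that holds Gi alpha subunits in their GDP form, read 5.75 and 5.33 on the knockout arrays, against 5.74 and 5.72 on the control arrays. One knockout array was level with the controls and the other lower, so the difference of -0.20 (SE 0.15) rested on knockout replicate 2, and it was 0.01 without that array. Rgs12, the largest of these proteins with PDZ and Ras binding domains, read 3.75 and 4.0 on the knockout arrays, against 3.89 and 4.09 on the control arrays. The genotypes overlapped close to the filter level, with a difference of -0.12 (SE 0.13), which was 0.0080 without knockout replicate 1.

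Rgs19, the RZ protein first found through its binding to a Gi alpha subunit, was level between the genotypes. It read 9.02 and 9.16 log2 units on the knockout arrays, against 9.20 and 8.95 on the control arrays. The control arrays enclosed the knockout arrays, and the difference was 0.02 (SE 0.12).

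**Figure D2:**
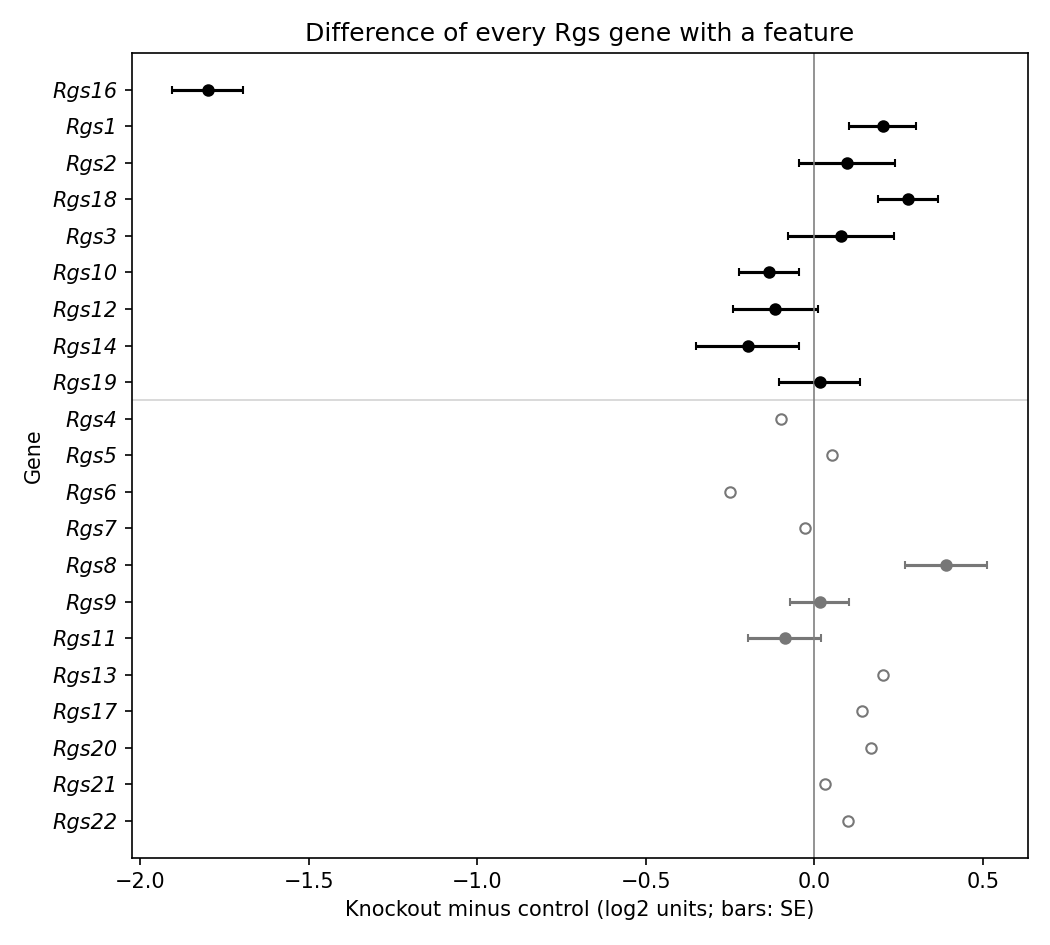
Difference of knockout minus control in log2 units for every Rgs gene with a feature of its own, with the 9 RGS genes described above the line and the other 12 Rgs genes below it. Filled points are tested genes with bars of 1 SE, and open points are genes below the filter level, shown without an error. Rgs16 at -1.80 stands alone, and all other points lie between -0.25 and 0.39.

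Beyond these 9, the array held features for 12 other Rgs genes, of which 3 were bright enough to be tested and 9 had means of 1.95 to 3.41 log2 units, below the filter level. In the fit 0 of the 3 were called by limma, with 1 of them, Rgs8, at an unadjusted p under 0.05. Rgs11, an R7 gene, read 5.13 and 4.93 on the knockout arrays, against 5.18 and 5.05 on the control arrays, and differed by -0.09 (SE 0.11, limma adjusted p = 0.668). Rgs9, the R7 gene known from photoreceptors and striatum, differed by 0.02 (SE 0.09, limma adjusted p = 0.934) at a level near 3.80. Rgs8, an R4 gene known from the brain, read 3.83 and 3.85 on the knockout arrays, against 3.30 and 3.59 on the control arrays, and differed by 0.39 (SE 0.12, limma adjusted p = 0.123). The genes below the filter level were Rgs4, Rgs5, Rgs6, Rgs7, Rgs13, Rgs17, Rgs20, Rgs21 and Rgs22, with differences of -0.25 for Rgs6 to 0.20 for Rgs13.

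Of the 9 genes, 4 lie on chromosome 1, and the RefSeq gene table of GRCm38.p6 places several of them side by side. Counting genes with a feature of their own, Rgs2, Rgs13, Rgs1, Rgs21 and Rgs18 follow each other, and Rgs16 lies next to Rgs8, with Rgsl1 on its other side. Rgs8 was at or near the filter level and did not pass, as given above. Rgsl1 was below that level at 3.40 and 3.43 log2 units on the knockout arrays and 3.36 and 3.23 on the control arrays. No neighbour of Rgs16 with such a feature thus had a lower mean in knockout, but features this dim could hardly show a fall. In the run of Rgs2 to Rgs18, both Rgs13 and Rgs21 were below the filter level on every array, between bright genes on either side. These neighbours were looked up after the values of Rgs16 had been seen.

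**Figure D3:**
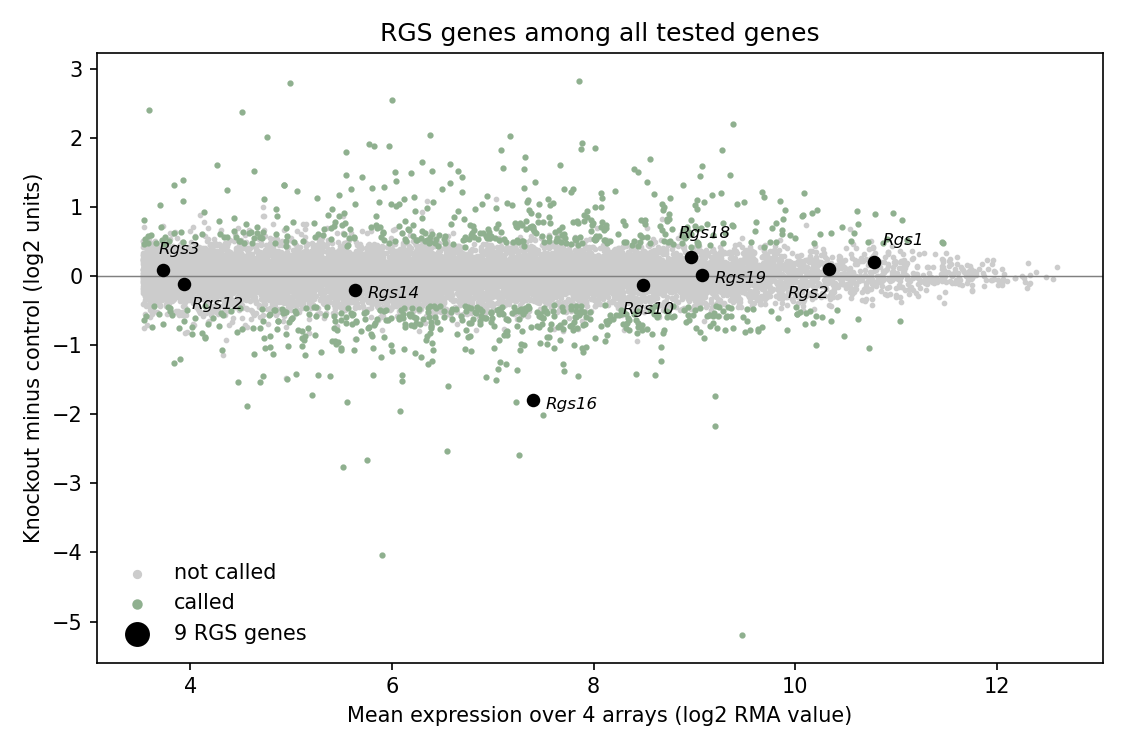
Difference of knockout minus control in log2 units against mean expression over the 4 arrays in log2 RMA values, for the 12542 tested genes, with called genes in green and the 9 RGS genes in black. Rgs16, at a mean of 7.40 and a difference of -1.80, lies among the large falls, and the other 8 lie within the band of genes that were not called.

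The other genes of heterotrimeric G protein signalling were read from 8 lists, the other Rgs genes among them. Of 117 genes written down, 104 had a feature of their own and 78 were tested, of which 6 were called higher and 6 lower, 12 in all, beside the 6.79% of all tested genes. Their median difference was 0.02 log2 units. The lists were chosen with earlier results of these data known, so nothing is read from their share of calls. The adjusted p-values of their genes below are given as a description. These calls need all 4 arrays: with control replicate 2 left out only Ccr2 passed, of 28 at an unadjusted p under 0.05, and with control replicate 1, knockout replicate 1 or knockout replicate 2 left out 0 passed in limma, of 24, 24 and 16 at an unadjusted p under 0.05.

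The alpha subunits, taken from all classes and not only Gi and Gq, were mostly level. Of 10 tested, 1 fell and 0 rose, with a median difference of -0.03 log2 units. At an unadjusted p under 0.05 the counts were also 1 and 0. Gnai2, the main Gi alpha subunit of leukocytes, read 10.56 and 10.64 on the knockout arrays, against 10.68 and 10.57 on the control arrays, a difference of -0.02 (SE 0.09, limma adjusted p = 0.914). Gnaq differed by -0.03 (limma adjusted p = 0.857), Gna13, which signals to RhoA, by 0.09 (limma adjusted p = 0.708) and Gnas, the stimulator of adenylyl cyclase, by 0.07 (limma adjusted p = 0.705) on a dim feature. The alpha subunit that fell was Gna15, a Gq class subunit of blood cells that accepts signals from many receptors. It read 5.98 and 5.87 on the knockout arrays, against 6.63 and 6.40 on the control arrays, a difference of -0.59 (SE 0.11, limma adjusted p = 0.0437).

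Among 11 tested beta and gamma subunits, 1 fell and 0 rose by limma, with 3 lower and 2 higher at an unadjusted p under 0.05. The subunit that fell was Gng12, at 9.06 and 9.0 log2 units on the knockout arrays, against 9.60 and 9.62 on the control arrays, a difference of -0.58 (SE 0.09, limma adjusted p = 0.0251). Averaged over all its features in place of the brightest, Gng12 no longer passed. Gnb1, whose feature had the highest mean, differed by -0.08 (SE 0.10, limma adjusted p = 0.646). Among effectors, 1 of 11 rose and 0 fell by limma, with 2 higher and 2 lower at an unadjusted p under 0.05. It was Plcb2, the phospholipase C beta of blood cells, at 8.37 and 8.36 on the knockout arrays, against 7.93 and 7.76 on the control arrays, a difference of 0.51 (SE 0.10, limma adjusted p = 0.0425). Pik3r5, the adaptor of phosphoinositide 3-kinase gamma, differed by 0.08 (SE 0.10, limma adjusted p = 0.665).

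Proteins with an RGS-like domain outside the family and G protein regulators without an RGS box gave 1 call in each of these 2 groups. Of 14 tested proteins with an RGS-like domain outside the family, 1 fell and 0 rose by limma, with 3 lower and 2 higher at an unadjusted p under 0.05. Snx25, a sorting nexin with an RGS-like domain, read 6.03 and 5.99 log2 units on the knockout arrays, against 6.70 and 6.82 on the control arrays, a difference of -0.75 (SE 0.09, limma adjusted p = 0.0156). Snx13, another such nexin, differed by 0.29 (limma adjusted p = 0.127). Of 7 tested regulators without an RGS box, 1 rose and 0 fell by limma, with 3 higher and 1 lower at an unadjusted p under 0.05. Gpsm3, a GoLoco protein of blood cells that binds Gi alpha and beta subunits, read 8.09 and 8.05 on the knockout arrays, against 7.65 and 7.60 on the control arrays, a difference of 0.45 (SE 0.09, limma adjusted p = 0.0437). Centred on array medians, neither Gpsm3 nor Plcb2 passed. Arrb2, a beta-arrestin that uncouples receptors, differed by 0.33 (SE 0.09, limma adjusted p = 0.101). Grk2, a kinase that marks receptors for arrestins, had no feature of its own and was not analysed here.

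Receptors moved in both directions. Of 18 tested macrophage receptors known to couple to Gi or Gq, 2 rose and 3 fell by limma, with 7 higher and 4 lower at an unadjusted p under 0.05 and a median difference of 0.15 log2 units. Ccr2, the receptor for monocyte-attracting chemokines, rose by 0.83 (SE 0.10, limma adjusted p = 0.0144) and P2ry14, the UDP-glucose receptor, by 0.72 (SE 0.09, limma adjusted p = 0.0154). Ccr1 fell by 0.92 (SE 0.12, limma adjusted p = 0.0167), Cmklr1, the chemerin receptor, fell by 0.61 (limma adjusted p = 0.0328) and P2ry2, a receptor for ATP and UTP, fell by 0.58 (limma adjusted p = 0.0353). C3ar1, the complement C3a receptor, differed by 0.23 (limma adjusted p = 0.181). Ccr2 is also on the list of monocyte markers, and the part of monocytes in its value was not tested.

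Of the 4 tested receptors known to raise cAMP through Gs, 2 rose and 0 fell by limma, with 2 higher and 1 lower at an unadjusted p under 0.05. Both are receptors for prostaglandin E2. Ptger4 read 9.38 and 9.62 log2 units on the knockout arrays, against 8.83 and 8.66 on the control arrays, a difference of 0.76 (SE 0.12, limma adjusted p = 0.0299). Ptger2 read 5.75 and 5.59 on the knockout arrays, against 4.94 and 5.03 on the control arrays, which is higher by 0.68 (SE 0.10, limma adjusted p = 0.0251). The knockout arrays lay above the control arrays for both genes. The prostacyclin receptor Ptgir differed by -0.52 (SE 0.15, limma adjusted p = 0.108).

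**Figure D4:**
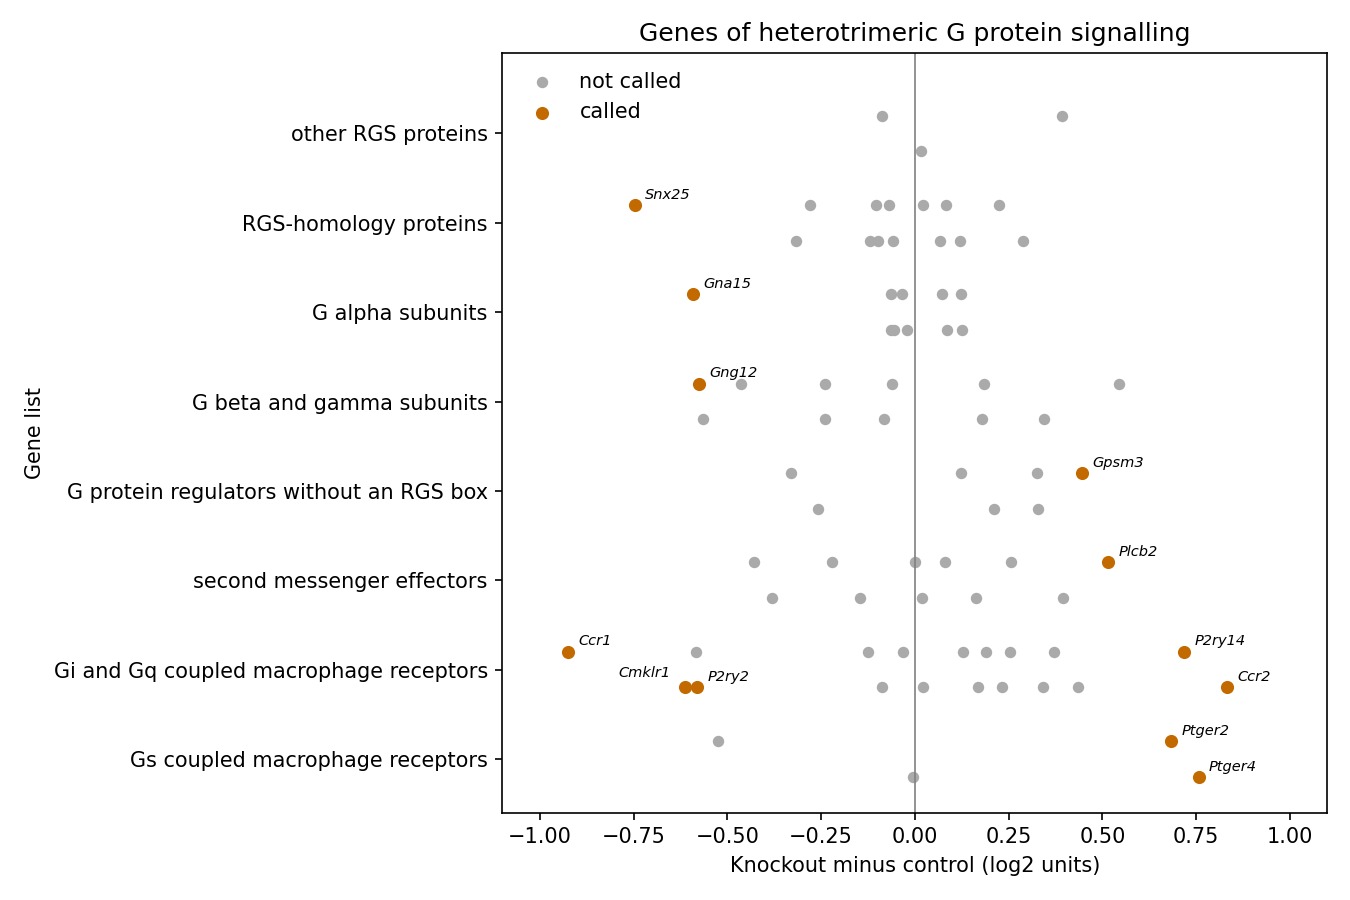
Difference of knockout minus control in log2 units for the tested genes of 8 lists of G protein signalling genes, with a point for each gene and the 12 called genes in orange with their names. Points are set in 2 lines within a list only to keep them apart. The called genes lie between -0.92 for Ccr1 and 0.83 for Ccr2. Rgs16, at -1.80, is not drawn here, and it was listed with this contrast known.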

How the data were processed

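Per the series' design text, the authors deposited log2 values made with RMA (background adjustment, normalization between arrays, log2 transformation); per the submitters' processing notes the tools were RMA and oligo, with versions and genome build not given in the sources used here. Biotinylated cDNA came from 400 ng total RNA on Affymetrix whole-transcript arrays, per the labels' protocols. Of 41345 features, 23521 had 1 gene symbol in the platform annotation, 1814 several and 16010 none; 23328 matched the RefSeq table (GRCm38.p6) by gene ID. A gene's feature with the highest mean was used, and genes with a mean of at least 3.53 were tested with limma 3.58.1 in R 4.3.3 (lmFit, eBayes, no block, Benjamini-Hochberg over 12542 genes, threshold 0.05, two-sided; 2 residual degrees of freedom). The fit was tested on simulated data. The 9 genes and the gene lists were chosen with earlier results of these data known. The text names the 9 genes, every other Rgs gene, each list's called genes (at most 6) and brightest gene, and Gnai2, Gnaq, Gna13, Gnas, Grk2, Ppp2ca, Ppp2cb and Lyz2; other genes were chosen after their values were seen. Alternatives covered filter, normalization, feature choice, variance model, array weights, replicate block and each array left out.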

Additional observations from a re-analysis of the deposited data

How the results depend on the processing

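Over the alternatives, the difference of Rgs16 was between -1.89 and -1.71 log2 units, that of Rgs18 between 0.24 and 0.32, that of Rgs1 between 0.12 and 0.29 and that of Rgs10 between -0.18 and -0.09. The sign of the other 5 changed in at least 1 alternative, with ranges of -0.08 to 0.27 for Rgs2, -0.13 to 0.29 for Rgs3, -0.24 to 0.0080 for Rgs12, -0.41 to 0.01 for Rgs14 and -0.11 to 0.14 for Rgs19. Rgs3 and Rgs12 were below the stricter filter. The count of RGS genes called was 2 with a variance trend, Rgs18 joining at a difference of 0.28, and 1 under every other alternative that kept all arrays. These genes were listed with this contrast known, and the alternatives refit the same arrays. The count is therefore only a description, and nothing is read from its repeat. Over all genes, 852 calls became 333 with no filter, 1354 with the stricter filter, 1584 with a variance trend, 174 and 164 without control replicate 1 or 2, and 96 and 101 without knockout replicate 1 or 2, where the lone array is assumed to vary like the other genotype. The 12 called genes of the G protein lists became 4 with no filter, 18 with a variance trend and 0 to 1 with 1 array left out. With the replicate number as a block, 312 genes were called, 4 of them in the lists. The difference of replicate 1 from replicate 2 in knockout and that in control were correlated at -0.04 across genes. Same-numbered arrays thus showed almost no shared deviation, and the labels give the number no further meaning. The causes of these changes were not tested. Dim features (Rgs3, Rgs12) limit what can be measured.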
